A study of Mus musculus with 2 samples.

Results

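Phosphoinositide signalling was followed through 9 genes of mouse macrophages: the lipid kinase genes Pik3cd, Pik3cg, Pik3ca and Pik3cb, the regulatory subunit Pik3r5, the adaptor Pik3ap1, the lipid phosphatases Inpp5d and Inppl1, and the phospholipase Plcg2. They were chosen by name, with earlier results of these data known, and all 9 were found among 21924 protein-coding genes of the GENCODE M21 annotation. The series holds 2 samples of 1 group, which are biological replicates of primary macrophages grown from the bone marrow of C57BL/6J mice and left without stimulation. In each, chromatin carrying histone H3 trimethylated at lysine 36 (H3K36me3) was immunoprecipitated and sequenced from 10 ng of DNA with fragments of 350 to 480 bp. Both biosamples are recorded under a single donor entry, so any spread between them could be technical, and sex and age were not collected. A control experiment that the labels name was not analysed here, and with 1 group no comparison between conditions and no test was possible.

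H3K36me3 is laid down along gene bodies behind elongating RNA polymerase II, and it is known to build up from the start of a transcribed gene toward its 3′ end. Class I phosphoinositide 3-kinases add a phosphate at position 3 of the inositol ring of a membrane lipid, producing PIP3, which recruits kinases such as Akt. The SHIP phosphatases remove the 5-phosphate of PIP3, and phospholipase C gamma cleaves the precursor lipid PIP2 into IP3 and diacylglycerol. Leukocytes use particular isoforms of these enzymes next to others that are made in nearly all tissues. Pik3cd, Pik3cg, Pik3ap1, Pik3r5, Inpp5d and Plcg2 are known mainly from blood cells and were treated as the 6 leukocyte members. Pik3ca, Pik3cb and Inppl1 are known from most tissues and were treated as the 3 ubiquitous members.

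The values are peaks, called by the authors on each replicate alone. Replicate 1 had 32098 peaks over 28.5 Mb and replicate 2 had 58505 peaks over 79.4 Mb. Neither list gives reads, and the depth of either library is unknown. Covered share means the percent of a gene body, from its first to its last annotated base over all transcripts, that lies under peaks. A marked gene is one whose covered share reached 20% in each of the replicates. Of 12 macrophage marker genes 11 had a peak, 6 reached 20% in replicate 1 and 11 in replicate 2. Of 36 markers of T cells, B cells, neutrophils, dendritic cells, fibroblasts and erythroid cells with an annotation record, 33 had no peak in either replicate, those with one were Cd28, Csf3r and Epb42, and of these Csf3r alone reached 20%.

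Peak windows of 5 members are shown as sequence, because they place the same mark on an exon in some genes and inside an intron in others. Each is a window of 300 bases of mm10 around the summit of the replicate 1 peak with the highest enrichment whose window lay wholly under peaks of both replicates and touched no untranslated exon. All are written 5′ to 3′ on the gene's own strand, and capitals mark bases of coding exons. The Inpp5d window is chr1:87681579-87681878 on the plus strand and holds 72 coding bases, all of exon 8 of 27. The Inppl1 window is chr7:101832828-101833127 on the minus strand and holds 121 coding bases of exon 5 of 29. The Pik3cd window is chr4:149654838-149655137 on the minus strand and holds 133 coding bases of exons 14 and 15 of 24. The Pik3ca window is chr3:32438474-32438773 on the plus strand, in the intron after exon 4 of 21. The Pik3cg window is chr12:32195205-32195504 on the minus strand, in the intron after exon 7 of 11.
Inpp5d: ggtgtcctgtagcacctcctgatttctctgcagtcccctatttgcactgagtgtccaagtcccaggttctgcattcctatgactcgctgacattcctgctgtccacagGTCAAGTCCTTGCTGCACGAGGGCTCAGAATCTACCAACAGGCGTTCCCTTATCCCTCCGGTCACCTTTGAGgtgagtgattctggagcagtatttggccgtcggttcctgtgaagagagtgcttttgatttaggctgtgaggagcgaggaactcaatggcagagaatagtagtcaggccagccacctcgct
Inppl1: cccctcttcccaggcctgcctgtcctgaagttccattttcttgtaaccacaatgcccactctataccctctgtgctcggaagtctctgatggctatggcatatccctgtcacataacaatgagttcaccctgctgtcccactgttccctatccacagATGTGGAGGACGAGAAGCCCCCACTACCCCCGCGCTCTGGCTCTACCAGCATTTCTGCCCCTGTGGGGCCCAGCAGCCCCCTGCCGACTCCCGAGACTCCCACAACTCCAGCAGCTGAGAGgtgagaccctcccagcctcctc
Pik3cd: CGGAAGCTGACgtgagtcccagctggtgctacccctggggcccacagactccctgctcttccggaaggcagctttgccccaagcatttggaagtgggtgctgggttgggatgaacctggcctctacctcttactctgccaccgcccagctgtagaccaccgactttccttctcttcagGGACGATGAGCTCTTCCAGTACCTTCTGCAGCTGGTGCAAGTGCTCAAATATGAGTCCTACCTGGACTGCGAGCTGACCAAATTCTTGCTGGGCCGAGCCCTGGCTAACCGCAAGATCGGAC
Pik3ca: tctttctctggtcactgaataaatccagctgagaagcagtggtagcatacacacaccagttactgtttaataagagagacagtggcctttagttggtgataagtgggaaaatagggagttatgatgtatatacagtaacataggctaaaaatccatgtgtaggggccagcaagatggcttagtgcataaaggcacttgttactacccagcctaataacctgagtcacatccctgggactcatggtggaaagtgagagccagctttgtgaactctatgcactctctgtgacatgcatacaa
Pik3cg: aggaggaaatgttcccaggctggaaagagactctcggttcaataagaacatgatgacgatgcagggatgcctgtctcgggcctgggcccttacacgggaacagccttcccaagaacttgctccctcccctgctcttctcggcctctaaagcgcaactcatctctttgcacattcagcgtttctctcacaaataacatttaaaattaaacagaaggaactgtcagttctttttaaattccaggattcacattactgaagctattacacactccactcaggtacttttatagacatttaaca

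In the 3 windows with coding bases, each exon that starts inside the window follows the letters ag and each that ends inside it is followed by gt, the usual ends of introns. The windows of the other 4 members, not printed, were all intronic. The windows with exons held 53.0% G and C in Inpp5d, 58.7% in Inppl1 and 58.3% in Pik3cd. The 6 intronic windows ranged from 39.0% in Pik3r5 to 58.0% in Pik3cb, so the kinds of window overlapped. The enrichment that the authors gave the replicate 1 peak behind each window, a ratio over their caller's background, was 4.61 in Inpp5d, 4.74 in Inppl1 and 3.93 in Pik3cd, and it was 3.25 in both Pik3ca and Pik3cg. Behind the other intronic windows it was 3.39 in Pik3cb, 4.20 in Pik3r5, 5.01 in Pik3ap1 and 5.15 in Plcg2. The window rule passed over the replicate 1 peak of highest enrichment in Pik3ap1, Pik3cb, Pik3ca and Pik3cg. That peak was 86.9% exon in Pik3ap1 at 5.15, 90% in Pik3cb at 4.61 and 100% in Pik3ca at 3.80. In Pik3cg, at 3.66, it held no exon base. The windows therefore do not show whether exons or introns held the higher enrichment.

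All 9 genes carried peaks in both replicates, against 28.8% of all coding genes and 42.2% of those of 15 to 140 kb, a length range that holds all members. No member was free of peaks, a state shared by 61.4% of all coding genes and 48% of those in the length range. The members marked in both replicates were Inpp5d, Pik3ap1, Plcg2 and Inppl1, which is 4 of 9 where the share of all coding genes was 7.62%. Among coding genes of that length range the share marked in both was 9.94%. Since the members were chosen with earlier results of these data known, these contrasts are descriptions. In replicate 1 the same 4 genes reached 20%, beside 7.64% of coding genes, and in replicate 2 all 9 did, beside 23.3% of coding genes and 30% of those in the length range. The median over the members was 19.6% in replicate 1 and 50.5% in replicate 2, whereas the median over all coding genes was 0 in both. The nearest member below the line was Pik3cd, at 19.6% in replicate 1.

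**Figure D1:**
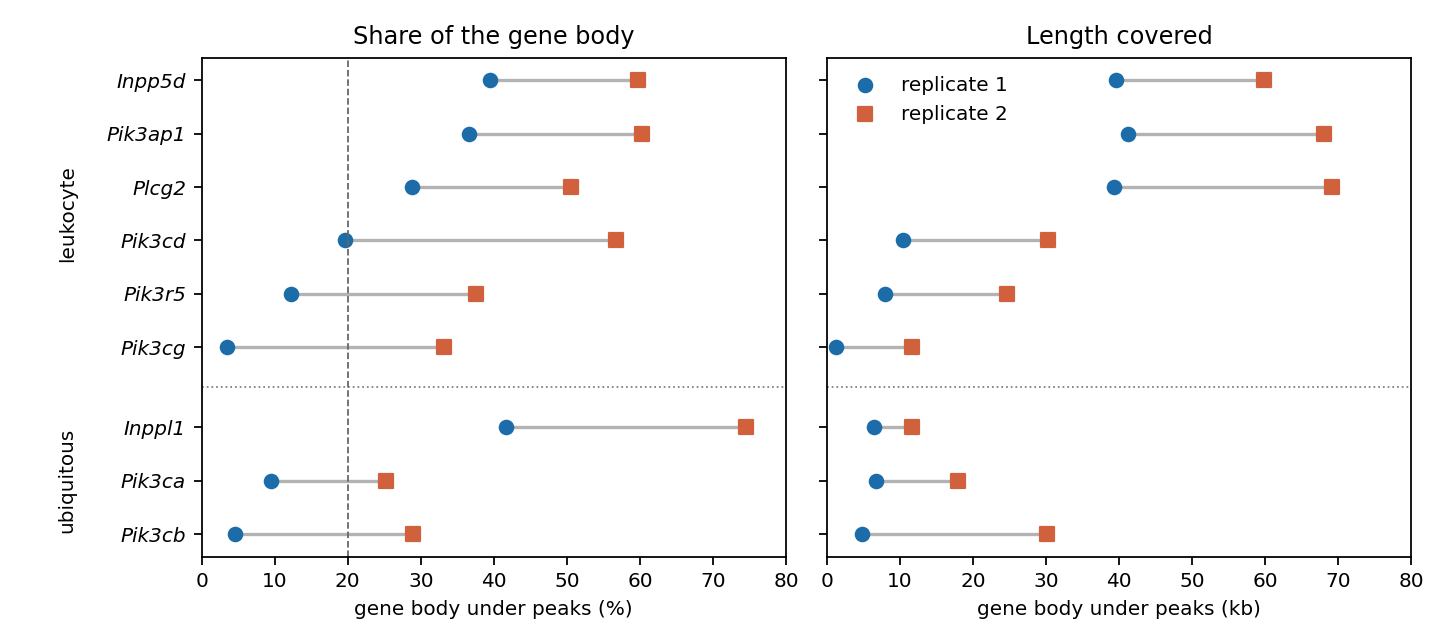
Percent of each gene body under H3K36me3 peaks (left) and the length under peaks in kb (right), with 1 point per replicate and a grey line joining them. The dashed line marks 20%, and the dotted line divides the 6 leukocyte members from the 3 ubiquitous ones. Replicate 2 lies to the right of replicate 1 for every gene, and Inppl1 has the highest share and one of the shortest covered lengths.

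Pik3cd encodes p110 delta, the class IA catalytic subunit of leukocytes. Its gene (ENSMUSG00000039936.18) spans 53.4 kb of the minus strand at chr4:149649168-149702571. Peaks covered 19.6% of it in replicate 1 and 56.7% in replicate 2, or 38.2% ± 26.2 (SD, n = 2), the widest spread of the 9. There were 10 peaks in replicate 1 and 16 in replicate 2. The peak of this gene with the highest enrichment was also its longest in both lists and lay near the 3′ end, at chr4:149652316-149655570 in replicate 1 and chr4:149652242-149659260 in replicate 2. Exons were covered over 58.9% of their length in replicate 1 and introns over 14.4%, and the values were 86.9% and 52.7% in replicate 2. The first intron of its longest coding transcript takes up 52.1% of that transcript, with 7.91% of it under peaks in replicate 1 and 41.0% in replicate 2. The rest of that transcript was covered over 33.1% and 76.0%.

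Pik3cg encodes p110 gamma, the class IB catalytic subunit, which acts below G protein-coupled receptors. Its gene (ENSMUSG00000020573.17) spans 35.2 kb of the minus strand at chr12:32173473-32208659. Peaks took up 3.43% of it in replicate 1, the lowest value of the 9, and 33.1% in replicate 2. Replicate 1 had 2 peaks there, at chr12:32195205-32196093 and chr12:32192956-32193274, and replicate 2 had 9. Both replicate 1 peaks lay 12.6 to 15.7 kb from the annotated start, and of 10 equal bins along the body bin 4 was the most covered in each replicate, at 25.3% and 92.6%. Pik3cg was the member without a majority of its covered bases in the downstream 50% of the body, which held 0% of them in replicate 1 and 31.3% in replicate 2. With 1.21 kb under peaks in replicate 1, its position there rests on those peaks alone.

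Pik3r5 encodes p101, a regulatory subunit that pairs with p110 gamma. Its gene (ENSMUSG00000020901.13) spans 65.7 kb of the plus strand at chr11:68432121-68497849. Of this body 12.2% lay under peaks in replicate 1 and 37.6% in replicate 2. Most of that length lay toward the 3′ end, where the downstream 50% of the body held 95.5% of the covered bases in replicate 1 and 85.6% in replicate 2. Its first intron is 41.5 kb long, or 63.2% of the transcript, and was covered over 0.876% and 12.5%. Outside that intron 31.6% was under peaks in replicate 1 and 80.6% in replicate 2, the highest of the 9 members there in replicate 2. Pik3r6, which encodes the other regulatory partner of p110 gamma, starts 5.17 kb further along the same strand and was covered over 6.79% and 39.7%.

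Pik3ap1 encodes BCAP, an adaptor that links Toll-like and B cell receptors to PI3-kinase. Its gene (ENSMUSG00000025017.10) spans 113 kb of the minus strand at chr19:41272377-41385102. It was covered over 36.6% in replicate 1 and 60.3% in replicate 2. The 41.2 kb and 68.0 kb under peaks made it first by covered length in replicate 1 and second in replicate 2. A single replicate 2 peak of 16.7 kb, at chr19:41271785-41288515, ran over the 3′ end. Coverage was also present early: bin 1 of 10 was covered over 25.8% in replicate 1 and 44.1% in replicate 2, the highest first bin of the members in each. Between the early and the late peaks lay a gap of 28.3 kb in replicate 1 and 17.2 kb in replicate 2.

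Pik3ca encodes p110 alpha, a class IA catalytic subunit of most tissues. Its gene (ENSMUSG00000027665.13) spans 70.8 kb of the plus strand at chr3:32397671-32468486. Peaks covered 9.49% of it in replicate 1 and 25.3% in replicate 2. No base of the first 5 of 10 bins of the body lay under a peak in either replicate, and the first peak began 40.7 kb from the start in replicate 1 and 39.5 kb in replicate 2. The upstream start rests on 1 coding transcript of GENCODE support level 5, while the 2 coding transcripts of level 1, the best supported class, start 38.5 kb and 38.7 kb inside the body. Over the span of those level 1 transcripts, 32.3 kb from chr3:32436151, peaks took up 20.8% in replicate 1 and 55.3% in replicate 2. The RefSeq table lists 1 Pik3ca promoter, at chr3:32396815-32397114 of GRCm38, which is next to the upstream start and was free of peaks.

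Pik3cb encodes p110 beta, the other class IA catalytic subunit of most tissues. Its gene (ENSMUSG00000032462.14) spans 104 kb of the minus strand at chr9:99036654-99140621. It was covered over 4.63% in replicate 1 and 29.0% in replicate 2. Replicate 1 had 7 peaks and replicate 2 had 24. The last of 10 bins was the most covered in both, at 28.5% and 89.3%. Its level 1 transcript spans 103 kb of the body and gave 4.66% and 29.1%.

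Inpp5d encodes SHIP1, the PIP3 5-phosphatase of blood cells. Its gene (ENSMUSG00000026288.14) spans 100.2 kb of the plus strand at chr1:87620312-87720507. It was covered over 39.5% in replicate 1 and 59.8% in replicate 2, or 49.6% ± 14.3 (SD, n = 2). Its 30 peaks in replicate 1 were more than its 23 in replicate 2, where the peaks were longer, with a longest one of 10.1 kb at chr1:87675853-87685974 that contains the printed window. In replicate 1 a lone peak lay 7.21 to 7.55 kb from the start, no peak followed until 45.1 kb, and peaks were dense from there to the 3′ end. In replicate 2 the longest gap lay between 24.3 and 40.5 kb. From bin 5 to bin 10, each bin was covered over 39.6% to 85.2% in replicate 1 and 76.0% to 98.4% in replicate 2.

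Inppl1 encodes SHIP2, the PIP3 5-phosphatase of most tissues. Its gene (ENSMUSG00000032737.13) is the shortest of the 9, with 15.6 kb of the minus strand at chr7:101822632-101838229. It was covered over 41.7% in replicate 1 and 74.5% in replicate 2, the highest share of the 9 in each. Of all coding genes, 1.18% in replicate 1 and 1.05% in replicate 2 had a higher share. Replicate 2 held a single peak of 11.6 kb at chr7:101823720-101835334, which filled every bin from bin 3 to bin 9, and replicate 1 had 5 peaks inside it. By covered length Inppl1 came seventh of 9 in replicate 1 and last in replicate 2, with 6.50 kb and 11.6 kb. It was also the member whose introns were covered more than its exons in both replicates, at 47.8% against 32.8% and 87.3% against 56.0%. Of its body 99.4% overlaps no other coding gene, and over those bases the share was 41.9% and 74.9%.

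Plcg2 encodes phospholipase C gamma 2, which acts below Fc and other immune receptors. Its gene (ENSMUSG00000034330.10) is the longest of the 9, with 137 kb of the plus strand at chr8:117498291-117635142. Of its length 28.8% was under peaks in replicate 1 and 50.5% in replicate 2. The first peak began 57.5 kb from the start in replicate 1 and 6.51 kb in replicate 2, where a gap from 12.3 to 57.5 kb followed. The longest peak of any member, 17.8 kb at chr8:117588758-117606580 in replicate 2, lay in this gene. Coverage ran past the annotated end: 38.6% of the 5 kb downstream was under peaks in replicate 1 and 53.4% in replicate 2. Its ubiquitous relative Plcg1 was covered over 0% and 0.91%.

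**Figure D2:**
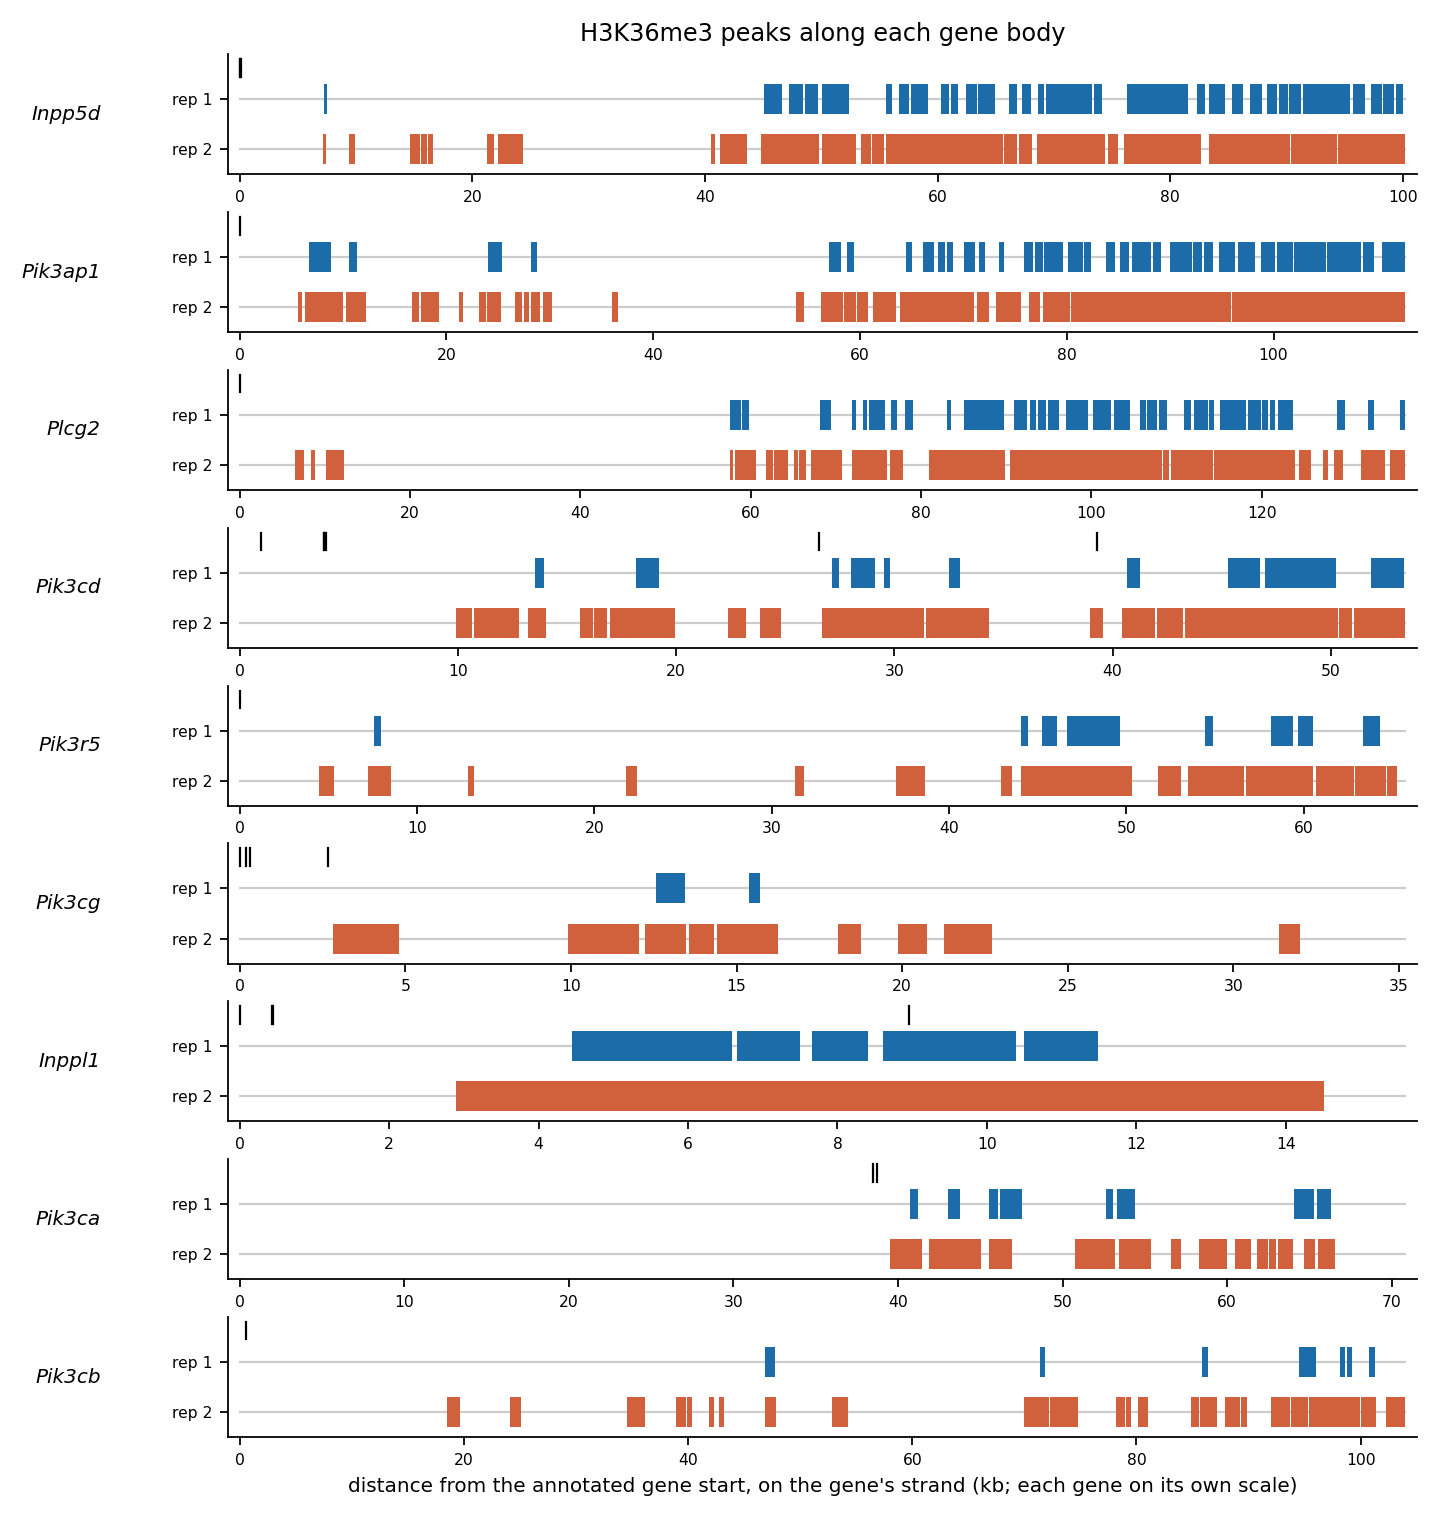
Position of every peak along the 9 genes, in kb from the annotated start on the gene's strand, with each gene on its own scale, replicate 1 in blue above and replicate 2 in orange below. Black ticks mark starts of coding transcripts of GENCODE support level 1. Peaks crowd toward the right in all genes but Pik3cg and Inppl1, and those of Pik3ca begin after its ticks, 38.5 kb into the body.

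Most members had their peaks toward the 3′ end, as did most coding genes of at least 5 kb with peaks in both replicates. The downstream 50% of the body, called the 3′ part below, held more than 50% of the covered bases in 8 of 9 members in replicate 1, beside 80.1% of those coding genes, 5 kb or longer, that had peaks in both replicates, and in 8 of 9 in replicate 2, beside 85.8%. The median share in the 3′ part was 88.2% in replicate 1 and 77.9% in replicate 2. Over the 1595 marked coding genes of at least 5 kb the medians were 71.0% and 65.5%. That is a different set from the genes with peaks in both, and only 4 of the 9 members belong to it. No member had a peak base in its first 2 kb or in the 5 kb upstream in either replicate. Among coding genes of at least 5 kb with peaks in both, 98.2% had a free first 2 kb in replicate 1 and 93.4% in replicate 2, and 93.3% and 87% had a free 5 kb upstream.

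Past the 3′ end, Inpp5d and Plcg2 had peaks within 5 kb in both replicates. In Inpp5d they covered 15.9% of that stretch in replicate 1 and 43.5% in replicate 2. Pik3cd, Pik3ap1 and Pik3cb had them in replicate 2 only, over 7.20%, 11.8% and 12.7%. The share of coding genes with peaks past the end was not worked out, so whether these members are unusual there is unknown.

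**Figure D3:**
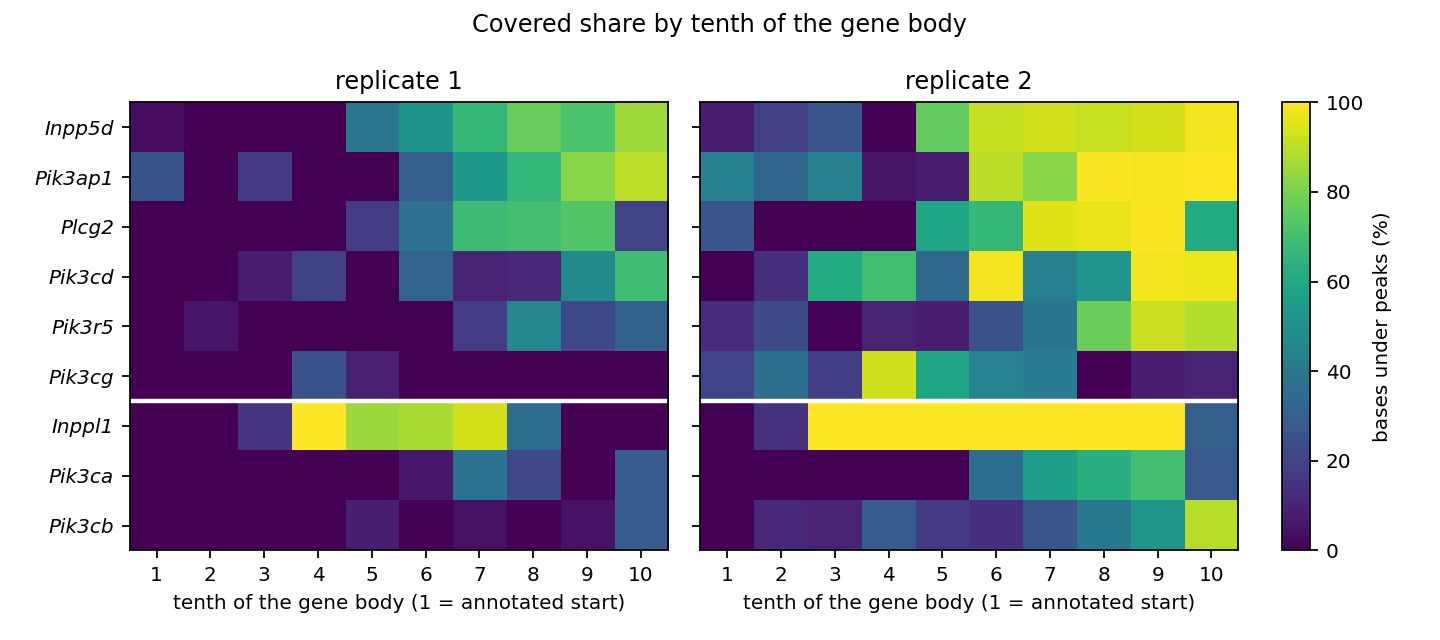
Percent of each of 10 equal bins of the gene body under peaks, numbered 1 at the start and 10 at the end, with the 6 leukocyte members above the white line and the 3 ubiquitous ones below. The last 5 bins are the brightest in Inpp5d, Pik3ap1 and Plcg2, the middle ones in Inppl1 and the fourth in Pik3cg.

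Exons were covered more than introns in 7 of 9 members in replicate 1 and in 8 of 9 in replicate 2. Of comparable coding genes with peaks in both, 70.3% and 76.4% did the same. The widest difference in replicate 1 was that of Pik3cd, given above, and Plcg2 followed with 68.2% of exon bases against 27.5% of intron bases. In replicate 2 Pik3r5 had 82.8% against 33.4%.

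First introns were covered less than the rest of the transcript, as in nearly all coding genes compared. How often they were free of peaks is given beside those genes as a description. The compared genes were not matched to the members for the length of the gene or of the first intron. The median gene length was 70.8 kb for the members and 17.4 kb for all coding genes. Whether members differ from genes of like length there is unknown. In 5 of 9 members the first intron of the longest coding transcript held no peak base in replicate 1, and likewise 5 of 9 in replicate 2, while 91.2% and 72.4% of the coding genes with peaks outside it had a free first intron. The rest of the transcript was covered more than the first intron in all 9 members in both replicates, as in 99.2% and 98.8% of those genes. In Pik3ca the first intron takes up 56.0% of the transcript and was free of peaks, and the rest was covered over 22.3% in replicate 1 and 59.4% in replicate 2. That transcript is the one of support level 5, so leaving out its first intron removes nearly the same stretch as drawing the body from level 1 transcripts. With the first intron left out, 7 of 9 members passed 20% in both replicates, all but Pik3cg and Pik3cb, where the share of coding genes with 2 or more exons was 12%. Whether intron length plays a part in the order of the members was not tested.

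The comparison of leukocyte with ubiquitous members turned on how the gene body was drawn. Over whole bodies the median covered share was 24.2% for the 6 leukocyte members and 9.49% for the 3 ubiquitous ones in replicate 1, and 53.6% against 29.0% in replicate 2. Of the leukocyte members 3 of 6 were marked in both replicates, and of the ubiquitous ones 1 of 3, Inppl1. Among the 18 pairs of a leukocyte and a ubiquitous gene, the leukocyte gene had the higher share in 10 pairs in replicate 1 and 12 in replicate 2. The means lay closer, at 23.3% against 18.6% and 49.7% against 42.9%. These are differences between genes, with no test, since genes are not replicates of a class.

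With bodies drawn from level 1 transcripts only, a choice made after seeing the data, the medians were 24.4% and 20.8% in replicate 1. In replicate 2 they were 54.2% and 55.3%, so the ubiquitous median was the higher one. With those bodies 5 of 9 members were marked, Pik3ca being the one added, beside 7.97% of coding genes. The leukocyte gene then led in 8 of 18 pairs in replicate 1 and 9 in replicate 2. Pik3ca moved the most, from 9.49% to 20.8% in replicate 1 and from 25.3% to 55.3% in replicate 2. With first introns left out the medians were 32.4% and 22.3% in replicate 1, and 65.7% and 59.4% in replicate 2.

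**Figure D4:**
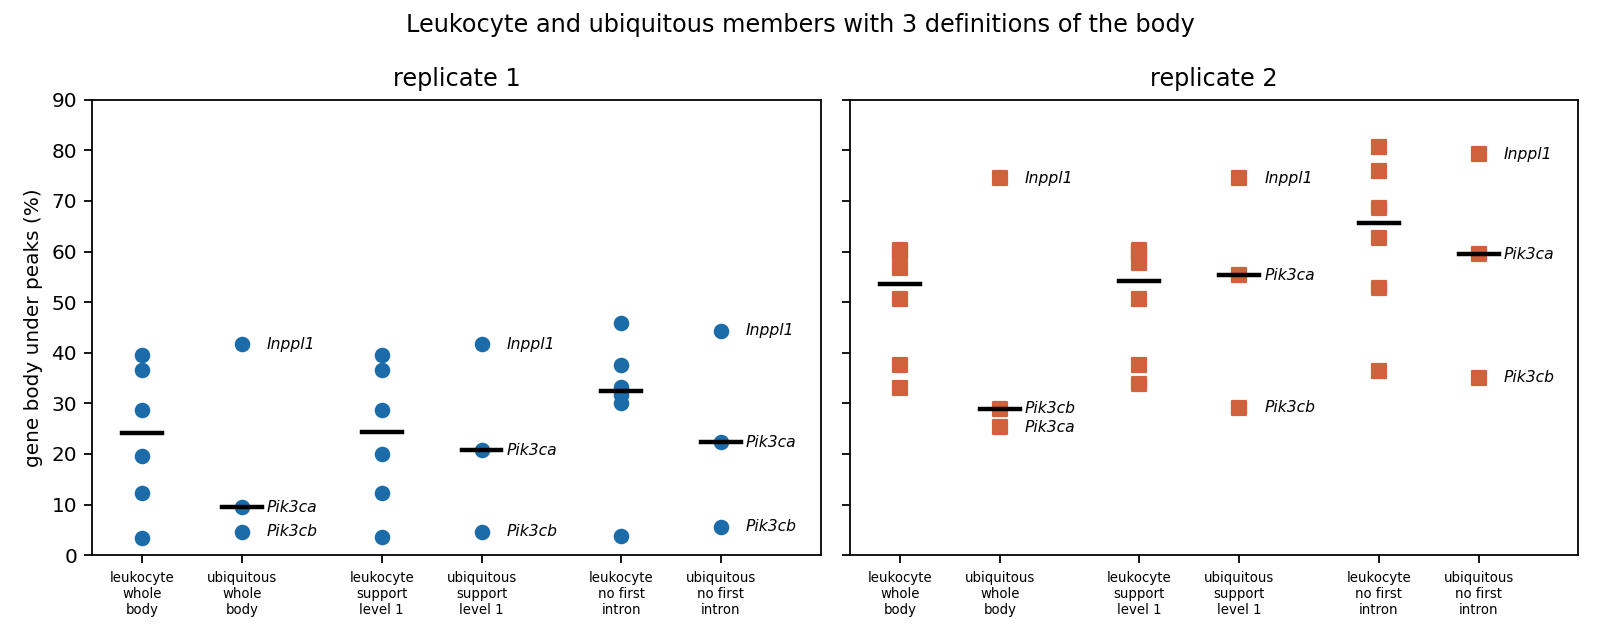
Covered share of the leukocyte and ubiquitous members in each replicate with the body drawn over all transcripts, over transcripts of support level 1, or over the longest coding transcript without its first intron; points are genes and black bars medians. Inppl1 is the highest ubiquitous point in every column, the ubiquitous points overlap the leukocyte points, and Pik3ca rises when the body is drawn in either of the other ways.

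Within families the picture was mixed. Of the SHIP phosphatases, ubiquitous Inppl1 was above leukocyte Inpp5d by share in both replicates and below it by covered length, 6.50 kb against 39.6 kb in replicate 1. In replicate 1 that order by share turned with first introns left out, at 44.3% for Inppl1 and 45.9% for Inpp5d, and with peaks of enrichment of at least 3 both stood at 36.8%. Of the class I catalytic subunits, Pik3cd was the highest over whole bodies in both replicates, and Pik3cg was the lowest in replicate 1 and second in replicate 2. With level 1 bodies Pik3ca led in replicate 1, at 20.8% with Pik3cd at 20.0%, and was second in replicate 2. Of the gamma phospholipases, leukocyte Plcg2 was above Plcg1, with 28.8% against 0% in replicate 1.

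By the mean of both replicates the order ran from Inppl1 at 58.1% ± 23.2 (SD, n = 2) through Inpp5d, Pik3ap1, Plcg2, Pik3cd, Pik3r5, Pik3cg and Pik3ca to Pik3cb at 16.8% ± 17.2 (SD, n = 2). In none of the 8 neighbouring pairs did the gap exceed both genes' spreads: the largest gap was 13.3 points, between Pik3cd and Pik3r5, and the SDs ran from 11.2 to 26.2 points. Replicate 2 was higher for all 9, as it was for 98% of all coding genes that had any peak. The SDs therefore hold a shift common to both genes of a pair and do not measure how firm their order is. Pik3cd was above Pik3r5 in both replicates, at 19.6% against 12.2% and 56.7% against 37.6%. Inppl1 ranked 1, Pik3r5 ranked 6 and Pik3cb ranked 8 in both. Inpp5d and Pik3ap1 changed places between replicates, as did Plcg2 and Pik3cd, and Pik3cg and Pik3ca. The first 3 places were held by the same genes in both replicates, Inppl1, Inpp5d and Pik3ap1.

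The replicate 2 value was 1.51 times the replicate 1 value in Inpp5d, 1.65 in Pik3ap1, 1.76 in Plcg2 and 1.79 in Inppl1. It was 2.66 times in Pik3ca, 2.89 in Pik3cd and 3.08 in Pik3r5. The largest ratios were 6.25 in Pik3cb and 9.65 in Pik3cg. These last 2 genes were also the ones with the least coverage in replicate 1. When replicate 2 was reduced to its 11224 peaks of highest enrichment, which gave the same total covered length as replicate 1, Pik3cg stood at 3.50% and Pik3cb at 4.98%, close to their replicate 1 values. Pik3ca stood at 8.80%, below its 9.49% in replicate 1, and was the member whose order of replicates turned. Pik3cd kept 33.5% and Inppl1 all of its 74.5%, and the number of members marked in both stayed at 4. The share of all coding genes marked with the reduced list was not worked out. The part of sequencing depth or of the strength of the immunoprecipitation in these ratios was not tested.

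Peaks of replicate 1 nearly all recurred. Of the 135 replicate 1 peaks in the 9 genes, 131 had at least 50% of their length under replicate 2 peaks, or 97.0% (exact 95% interval 92.6% to 99.2%, which covers the counting of peaks only). Over all replicate 1 peaks the share was 82.2%. In the other direction 32 of 151 replicate 2 peaks were covered to that extent, or 21.2%, next to 16.7% of all replicate 2 peaks. When 50% of both peaks had to overlap, 20.0% of the members' replicate 1 peaks were shared. Replicate 2 peaks took up 79.4 Mb and replicate 1 peaks 28.5 Mb, so recurrence from replicate 1 to replicate 2 was the easier direction. The peaks are also not independent, since several can lie under 1 replicate 2 peak, as all 5 of Inppl1 did.

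The other genes of the pathway give the setting. In 7 lists with 93 genes, which leave out the 9 members, 11 genes were marked in both replicates, beside 7.62% of all coding genes and 9.94% of those of 15 to 140 kb, and 23 had no peak in either, beside 61.4% and 48%. Their medians were 2.77% and 15.0%. The counts for single lists rest on few genes, have these same shares beside them, and are given as descriptions. Among 21 upstream kinases and adaptors 6 were marked, led by the high-affinity Fc receptor gene Fcgr1 at 34.2% in replicate 1 and 67.2% in replicate 2, and by the exchange factor gene Vav1 at 34.4% and 64.7%. None of 4 other class I regulatory subunits was marked in both: Pik3r6 is given above, Pik3r1 had 8.86% and 24.3%, and Pik3r3 had no peak.

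Of 5 class II and III genes 1 was marked, Pik3c3, the VPS34 kinase, at 23.2% and 50.5%, while its partner Pik3r4 had 16.1% and 59.5% and Pik3c2b no peak. Of 11 PI4 and PIP kinases 2 were marked, Pikfyve at 23.1% and 50.2% and Pi4k2a at 22.0% and 50.5%, and Pip5k1b had no peak. Of 21 other phosphoinositide phosphatases 2 were marked, Mtmr14 at 35.7% and 79.8% and Synj1 at 38.8% and 65.8%, and Inpp4b had no peak.

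Beside Plcg2, none of the 13 other phospholipase C genes was marked in both and 7 had no peak. These counts lie near the shares of all coding genes, 7.62% marked and 61.4% without a peak. Among those of 15 to 140 kb the shares were 9.94% and 48%. The highest of them were Plcb3 at 15.2% and 48.0% and Plcb2 at 5.79% and 33.0%, and Plcb1 had no peak. None of 18 effectors of PIP3 and IP3 was marked in both, beside the same 7.62% of all coding genes. Among them the kinase gene Akt1 had 9.60% and 60.4%, and Akt2 3.88% and 40.1%.

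**Figure D5:**
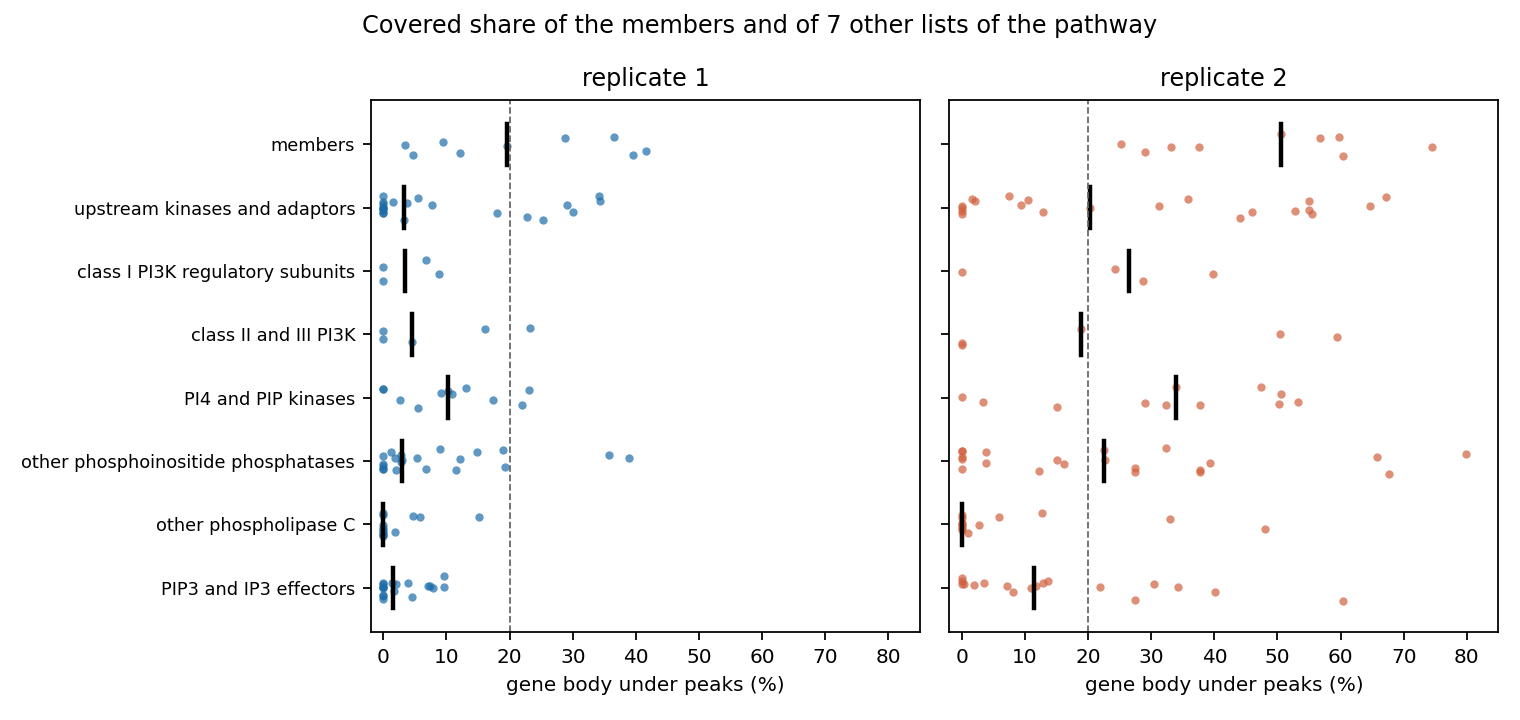
Covered share of the 9 members and of the genes of 7 other lists of the pathway in each replicate; points are genes (spread vertically for legibility), black bars medians, and the dashed line 20%. The members' median is the highest of the 8 rows in both panels, and 1 gene of the other lists, Mtmr14 in replicate 2, lies further to the right than every member.

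The coding gene whose profile lay nearest to each member was found among 17779 genes of at least 5 kb, by the Euclidean distance over 20 values, the 10 bins in each replicate. The nearest was Ints9 to Pik3cb, at a distance of 40.5 percentage points, and Arhgef7 to Pik3r5 at 44.7. Ap1g1 was nearest to Pik3ca at 45.9, and Arhgap17 to Inpp5d at 48.0. Kmt2a was nearest to Plcg2 at 55.0, Mdm4 to Pik3cg at 59.4, Snrpa to Inppl1 at 62.9, Ap1b1 to Pik3ap1 at 66.7 and Abca3 to Pik3cd at 68.4. Arhgap17 had 34.0% and 63.1% of its body under peaks, near the values of Inpp5d. None of these neighbours is another member or a gene of the 7 lists.

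Promoter windows of the members were nearly all outside the peaks, as gene starts were in most coding genes with peaks. The RefSeq table of GRCm38 gave 13 windows of 300 bases for the 9 members, and 1 of them held a peak base. The share over all windows of the table was not worked out. Of coding genes of at least 5 kb with peaks in both replicates, 98.2% and 93.4% had a free first 2 kb. That window, chr4:149663267-149663566, belongs to a start inside Pik3cd and was covered in full in replicate 2 and not at all in replicate 1. The windows held from 4 CpG dinucleotides, in Pik3cd and Pik3cg, to 44, in Pik3cb, and the median over all 32851 windows of the table was 7.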

How the data were processed

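The authors deposited 4 H3K36me3 peak lists on mm10: 1 per replicate, a pooled list and a list of replicated peaks. Per the labels' file notes, the replicate lists were called on that replicate alone and kept when found in pseudoreplicates. Which aligner and peak caller were run, and in which versions, is not given in the sources used here. The deposited columns are a display score, which equalled 10 times the −log10 p rounded down with 0 exceptions in these lists, an enrichment ratio over the caller's background, −log10 p and −log10 q values, and a summit offset. These are the authors' values per peak and were used within a list only. Read counts are in none of the lists, so precision from depth is unknown. Replicates sequenced or precipitated to different strength give different peak numbers and lengths, so the replicates are compared with that limit.

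Peaks were merged within a list, and the percent of bases under them was computed for each gene body of GENCODE M21 (GRCm38, the assembly of mm10), with the longest record kept where a symbol had several. Genes were split into 10 bins for profiles. Exons are the union over transcripts, and the first intron is that of the longest coding transcript. Python 3.11.15 with numpy 2.4.6, pandas 2.3.3 and pysam 0.24.0 was used, and the coverage script was tested on simulated data of known coverage. Members and pathway lists were chosen with earlier results of these data known. All 9 members were named. Of each list the text names 2 genes (highest mean share) and 1 gene (lowest mean share), with ties broken by symbol, and also Plcg1 and each member's nearest profile; some of these genes are not reported here. Alternatives were stricter peaks, the pooled and replicated lists, other gene bodies, other thresholds, other overlap rules, a reduced replicate 2, and each replicate left out. Bodies of support level 1, bodies without the first intron, means in place of medians and the comparison without Inppl1 were added after seeing the data.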

Additional observations from a re-analysis of the deposited data

How the results depend on the processing

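No paired analysis was possible because the series holds 1 group. The number of members marked in both replicates was 4. It was 7 with the first intron left out (added after seeing the data), beside 12% of coding genes with 2 or more exons. It was 5 with bodies of support level 1, beside 7.97% of coding genes. With a single replicate it was 4 to 9, beside 7.64% and 23.3% of coding genes. It was 3 with peaks of −log10 q of at least 5 only, where Plcg2 was lost, and 0 when marking began at 50%. In the authors' pooled list 9 members reached 20%, and 9 in their replicated list. Each is a single list, over 90.2 Mb and 85.9 Mb, where replicate 1 had 28.5 Mb. For these lists, the stricter q and the 50% threshold the share of all coding genes was not worked out.

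The number of other pathway genes marked in both was 11. It was 0 with −log10 q of at least 5, 7 with enrichment of at least 3, 23 when marking began at 10%, 0 when it began at 50%, and 11 to 43 with a single replicate. Beside the single replicates stood 7.64% and 23.3% of all coding genes, and no such share was worked out for the stricter peaks or other thresholds.

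The leukocyte minus ubiquitous difference of medians, averaged over the replicates, was 19.7 percentage points, with 14.7 to 24.7 when a single replicate was used. Added after seeing the data, it was 1.20 with bodies of support level 1, 5.76 with means in place of medians, 8.15 with the first intron left out and 21.8 without Inppl1. The median covered share of the members, 35.1% as the mean of both replicates, ran from 19.6% to 50.5% with a single replicate, and the median share in the downstream 50% of the body, 83.0%, from 77.9% to 88.2%. The share of replicate 1 peaks found again, 97.0%, was 99.3% with an overlap of 1 bp and 20.0% when 50% of both peaks had to overlap. Of the single members, Pik3ca and Pik3r5 moved by more than the spread between replicates. Pik3ca went from a mean of 17.4% to 38.1% with support level 1 and 40.9% without the first intron, which drop nearly the same stretch. Over its unchanged body, Pik3ca also moved to 31.3% in the pooled list and 29.6% in the replicated list. Pik3r5 went from 24.9% to 56.1% without the first intron. The cause was not tested. No value averaged over the replicates changed sign, but in replicate 2 alone the leukocyte minus ubiquitous difference was -1.19 with bodies of support level 1.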
